A study of Mus musculus with 6 samples.

Results

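Open chromatin was described at 10 genes of sialic acid metabolism in mouse hepatocytes, Cmah, St6gal1, St3gal1, St3gal2, St3gal3, St3gal4, St3gal5, St3gal6, Cmas and Gne. These genes held 177 open regions of 109853 in all, and 79 of the 177 had a peak in all 6 libraries. Regions were selected on peak calls: peaks of the 6 libraries that shared at least 1 bp were merged, and a region entered if any library had a peak there and its midpoint lay nearest to one of these genes, within 50 kb of the gene's span on the mouse build mm10. The value of a region in a library is its highest normalized tag count, the depth-scaled number of sequenced fragment ends in the peak. The genes were proposed with earlier results of these data known, so the counts below describe these genes, and the adjusted p-values do not allow for that choice.

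Sialic acids are acidic sugars that cap the glycans of secreted and membrane proteins and of lipids. GNE starts their synthesis from UDP-N-acetylglucosamine, CMAS activates them as the CMP-sugar in the nucleus, and CMAH then hydroxylates CMP-N-acetylneuraminic acid to the N-glycolyl form, a step that humans have lost. The enzymes encoded by St6gal1 and the St3gal genes transfer the activated sugar in the Golgi to galactose at the ends of glycans. In liver they act on serum glycoproteins, whose clearance by hepatocytes depends on that cap.

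Accessibility was measured by ATAC-seq, in which a transposase cuts and tags open DNA, in nuclei positive for the hepatocyte factor HNF4a that were sorted from livers of male mice. All mice carried floxed alleles of 2 genes, one of them Ncor1, which encodes a nuclear receptor corepressor. The dKO group (3 libraries) had received an adeno-associated virus (AAV) with Cre, and the control group (3 libraries) the same kind of virus with eGFP; the promoter that drives Cre is not given in the sources used here. Livers were taken 5 days after the virus at zeitgeber time 10, in the late light phase, in both groups. The labels do not say whether each library came from its own mouse, and the spread that p-values are set against may then be technical in part.

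Peak lists held 71473 to 84614 peaks in dKO libraries and 68316 to 83371 in control libraries. Peak width, fixed within each list, was 166 or 172 bp in dKO 3, control 2 and control 3 and narrower in dKO 1, dKO 2 and control 1, and fold changes are also given within these wide-peak and narrow-peak libraries. dKO 3 is the only dKO library with wide peaks, so its own difference from dKO 1 and dKO 2 and that of the peak width cannot be told apart. Peak calls followed the width at some sites: 10 of the 177 regions had a peak in every narrow-peak library and in no wide-peak one, and 1 had the opposite pattern (5093 and 714 of all 109853 regions). Hepatocyte markers checked the sort, with shared regions at 4 of 5 genes (Alb, Hnf4a, Ttr and Cps1) and a mean of 27.3 normalized tags a region in dKO and 37.7 in control. Among other cell types' markers, Kupffer cell regions averaged 10.8 in dKO and 12.8 in control (1 of 5 genes with a shared region) and endothelial regions 12.6 in dKO and 15.8 in control (5 of 5). Stellate cell regions averaged 8.85 in dKO and 8.63 in control (4 of 5), cholangiocyte regions 11.0 and 10.6 (3 of 5), and lymphocyte regions 17.3 and 18.9 (2 of 5). The B cell genes Cd79a and Ms4a1, the cholangiocyte keratin genes Krt19 and Krt7, the stellate gene Dcn and the Kupffer gene Vsig4 had no peak in any library.

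Promoter sequences are shown for Cmah, Gne and St3gal4, because the first Cmah start had a peak only in narrow-peak libraries, the Gne starts differed most from each other, and the St3gal4 start is the one start called. They are RefSeq windows of GRCm38.p6, the same build as mm10, from 250 bases before to 50 bases after a transcription start, 5′ to 3′ on the gene's strand. Capitals mark bases inside a region that had a peak in at least 1 library, to within 1 base at its edges.
Cmah first start, chr13:24327154-24327453, plus strand: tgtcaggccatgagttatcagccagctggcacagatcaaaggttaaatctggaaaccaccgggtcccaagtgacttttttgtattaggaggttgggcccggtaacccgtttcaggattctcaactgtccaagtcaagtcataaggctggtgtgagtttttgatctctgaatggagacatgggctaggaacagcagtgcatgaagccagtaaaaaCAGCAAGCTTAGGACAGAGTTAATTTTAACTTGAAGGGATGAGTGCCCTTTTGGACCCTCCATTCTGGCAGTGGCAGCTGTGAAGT
Cmah internal start, chr13:24414872-24415171, plus strand: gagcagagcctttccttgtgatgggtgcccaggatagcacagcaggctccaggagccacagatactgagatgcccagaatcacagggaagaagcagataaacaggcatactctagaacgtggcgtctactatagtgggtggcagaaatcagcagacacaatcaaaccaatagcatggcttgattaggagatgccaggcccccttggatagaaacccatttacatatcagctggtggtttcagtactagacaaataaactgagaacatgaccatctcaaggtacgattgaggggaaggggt
Gne outer start, chr4:44084128-44084427, minus strand: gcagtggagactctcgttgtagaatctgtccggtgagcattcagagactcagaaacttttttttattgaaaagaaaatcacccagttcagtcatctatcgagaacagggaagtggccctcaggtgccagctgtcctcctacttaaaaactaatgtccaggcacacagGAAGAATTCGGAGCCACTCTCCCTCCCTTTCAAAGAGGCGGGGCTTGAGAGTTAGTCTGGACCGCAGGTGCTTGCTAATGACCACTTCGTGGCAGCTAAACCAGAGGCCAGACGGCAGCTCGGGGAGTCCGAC
Gne internal start, chr4:44072668-44072967, minus strand: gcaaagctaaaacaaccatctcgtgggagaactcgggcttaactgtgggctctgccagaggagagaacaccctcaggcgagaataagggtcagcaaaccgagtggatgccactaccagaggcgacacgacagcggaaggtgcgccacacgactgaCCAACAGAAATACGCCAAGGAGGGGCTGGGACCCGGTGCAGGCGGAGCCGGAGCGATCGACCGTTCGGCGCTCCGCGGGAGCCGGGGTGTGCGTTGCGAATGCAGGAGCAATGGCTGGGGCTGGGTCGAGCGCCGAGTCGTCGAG
St3gal4 start, chr9:35116815-35117114, minus strand: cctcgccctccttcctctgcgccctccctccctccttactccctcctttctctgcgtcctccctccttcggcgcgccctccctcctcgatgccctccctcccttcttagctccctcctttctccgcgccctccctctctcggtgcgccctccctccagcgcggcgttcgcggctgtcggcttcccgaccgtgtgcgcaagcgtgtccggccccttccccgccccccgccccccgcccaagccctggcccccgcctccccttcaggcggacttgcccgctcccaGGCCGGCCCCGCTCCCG

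The first Cmah start had 3 CpG dinucleotides in its window and a GC content of 47.3%, against 28 CpG and 63.0% at the internal Gne start and 31 CpG and 74.0% at the St3gal4 start. A peak there had 31.9 normalized tags in dKO 1 and 26.2 in dKO 2, against 45.3 in control 1, and the wide-peak libraries had none. Every listed peak had at least 4 times the tags of its surroundings, and open DNA below that level is not listed. The internal Cmah start overlapped no peak in any library. At Gne the internal start was the open one, with 50.3, 47.7 and 67.7 normalized tags in dKO 1, 2 and 3 and 73.1, 62.2 and 59.8 in control 1, 2 and 3. The outer Gne start was faint, with 4.31, 3.5 and 5.83 in dKO and 4.4 and 4.71 in control 2 and control 3, and no peak in control 1.

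The table held 13 start windows for 8 of the 10 genes and none for St3gal1 and St3gal2. Short motifs were searched on both strands and counted per window, whether or not matches overlapped. AGGTCA, a core element bound by nuclear receptors, was in 1 of 13 windows, that of the third St6gal1 start, and in 16.3% of all 32851 windows of the table. The glucocorticoid receptor full site, AGAACA and its inverted repeat with 3 bases between them, was in 0 of 13 and in 0.00913% of all windows. The GC box GGGCGG was in 6 of 13 windows (35.7% of all) and CCAAT in 7 of 13 (37.4% of all). The E-box CACGTG and the TATA box TATAAA were in 0 of 13 windows, and in 7.15% and 13.6% of all. A missing match says only that these letters are not in these windows.

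Across the 79 shared regions of the 10 genes, dKO had 7 higher and 20 lower ones, and 52 passed in neither direction (limma, adjusted p below 0.05). Over all 51749 shared regions 8.19% were called higher and 11.6% lower. The median log2 fold change, dKO minus control on the scale log2(normalized tag count + 1), was -0.12 for the 79 regions and -0.02 for all. Cmah held 9 of the 20 lower regions, and the other 9 genes held 7 higher and 11 lower ones of 68. Without dKO 1 the count was 4 higher and 8 lower, without dKO 2 it was 2 and 7, and without control 1 it was 6 and 12; with quantile or cyclic loess normalization it was 8 and 13. Every dKO value lay above every control value in 11 of the 79 regions and below in 19, against 12.6% and 15.8% of all shared regions.

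**Figure D1:**
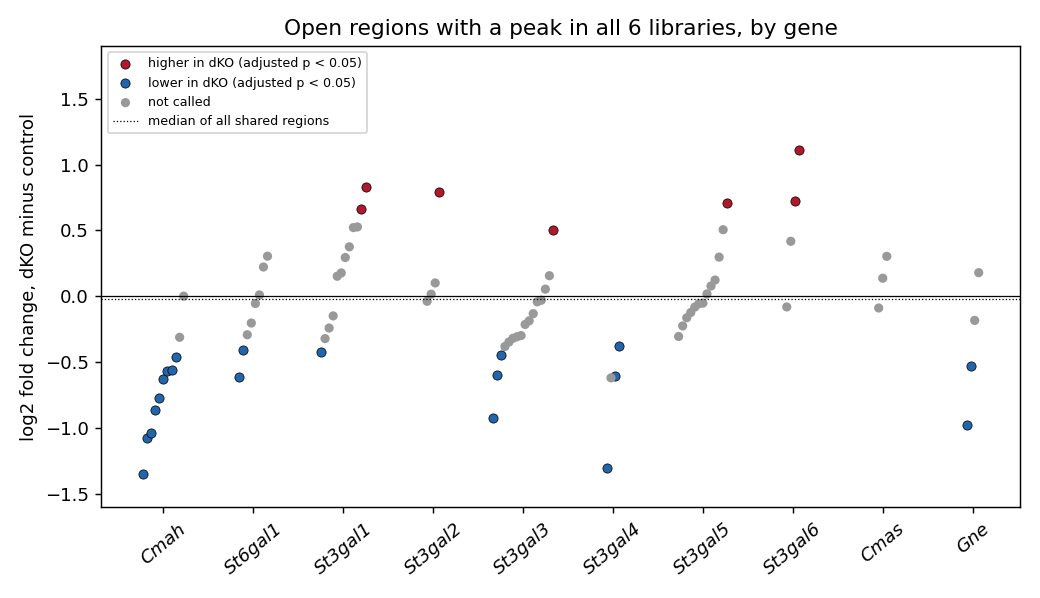
Log2 fold change, dKO minus control, of each shared region (1 point) by gene, with called regions in red (higher in dKO) and blue (lower in dKO) and the median of all shared regions as a dotted line. Of 11 Cmah points 9 are blue and none is red, while the red points lie at St3gal1, St3gal2, St3gal3, St3gal5 and St3gal6.

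At Cmah, which encodes the hydroxylase, accessibility was lower in dKO at most of the regions that could be tested. Of its 30 regions, 11 were shared, 9 of these were lower, none was higher and 2 were not called, with a median log2 fold change of -0.62. Signal summed over the 11 regions, with library medians set equal, was 209.3, 229.9 and 287.8 normalized tags in dKO 1, 2 and 3, against 409.4, 348.2 and 416.3 in control 1, 2 and 3. The dKO libraries thus stood at 53.5%, 58.7% and 73.5% of the control mean, with dKO 3 nearest to the controls and no overlap between the groups. In pooled nuclei, fewer nuclei with an open site and less accessibility in each nucleus cannot be told apart.

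The strongest Cmah region, at chr13:24330251-24330546, lies inside the gene 2994 bp from its first start. It had 43.1, 41 and 60.2 normalized tags in dKO 1, 2 and 3, against 75.3, 68.5 and 76.9 in control 1, 2 and 3. The groups did not overlap (log2 fold change -0.56, SE 0.11, limma adjusted p = 0.00563). A region at chr13:24354817-24355058 had 30, 28.3 and 37.8 in dKO against 49.6, 47.5 and 51.6 in control (-0.56, SE 0.11, limma adjusted p = 0.00432). All dKO values again lay below all control values.

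The Cmah region with the largest fold change lay 38118 bp into the gene, at chr13:24365339-24365706. It had 8.1, 9.72 and 25.2 normalized tags in dKO 1, 2 and 3, against 32.6, 34.4 and 39 in control 1, 2 and 3 (log2 fold change -1.35, SE 0.25, limma adjusted p = 0.0039). dKO 1 and dKO 2 were at the low end and dKO 3 stood nearer to the controls. Toward the far end of the gene, 118893 bp from the first start, a region at chr13:24446197-24446397 had 16.5, 14.8 and 18 in dKO against 43.1, 29.7 and 25.3 in control (-0.86, SE 0.17, limma adjusted p = 0.00508). Here the 3 dKO libraries were close together and control 1 was the highest.

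The other 5 lower regions of Cmah had log2 fold changes of -1.03, -1.07, -0.62, -0.77 and -0.46, with limma adjusted p of 0.0106 to 0.0351. The groups did not overlap at those starting at 24392669 and 24442409, and overlapped at the other three. At chr13:24377683-24377864 values were 8.16, 7.53 and 20.5 in dKO and 32.3, 13.1 and 36.9 in control, so dKO 3 lay above control 2. One shared region stood out for its lack of a difference. At chr13:24375373-24375585 it had 20.6, 18.2 and 18.7 in dKO and 21.7, 16.4 and 22.4 in control (log2 fold change 0.00, SE 0.15, limma adjusted p = 0.994).

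A Cmah region at chr13:24353129-24353315 had a peak in all 3 controls, with 25.2, 26.3 and 34.1 normalized tags, and in no dKO library. Of all 109853 regions 1.34% had this pattern, and 3 of the 177 regions here (1 each at Cmah, St6gal1 and St3gal3). Weak Cmah sites 8576 and 6398 bp before the gene had peaks in dKO 1 and dKO 2 alone, of 6.88 and 5.91 at the outer site and 9.56 and 9.09 at the inner one. The first 4 Cmah regions described kept their call in every alternative that tested them, including each library left out. Of the 9 lower regions, 4 stayed called without dKO 1 and 4 without dKO 2, and 7 with quantile or cyclic loess normalization.

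**Figure D2:**
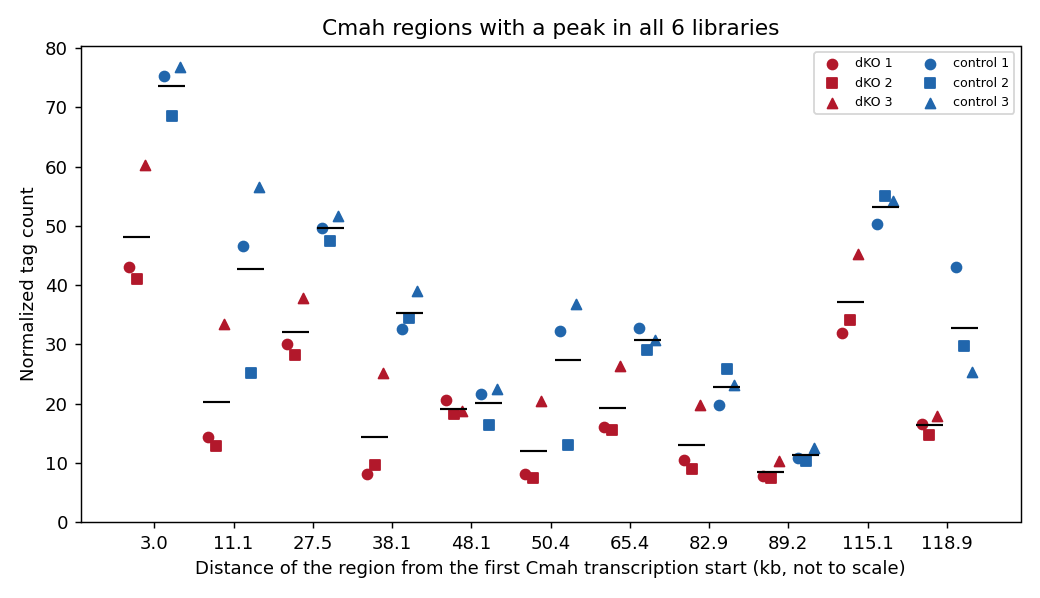
Normalized tag count of each library (symbols, dKO in red and control in blue) at the 11 shared Cmah regions, ordered by distance from the first start in kb, with the mean of each group as a bar. All red symbols lie below all blue ones at 6 positions, dKO 3 (triangle) is the highest red symbol at 10 of them, and the groups overlap closely at 48.1 kb.

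Summed signal at hepatocyte and endothelial markers was lower in dKO, as at Cmah. The 21 shared regions, at 4 of the 5 hepatocyte marker genes, included 11 lower and 0 higher ones. That is 52.4% lower, against 11.6% of all shared regions. Their summed signal, with library medians set equal as for the other markers, was 539.4 to 630.1 in dKO and 773.1 to 816.9 in control, without overlap. For endothelial markers the sum was 257.9 to 314.3 in dKO and 315.8 to 408.7 in control. Of their 23 regions 4 were lower and 1 higher (17.4% and 4.35%, against 11.6% and 8.19% of all shared regions). The sums of the Kupffer (18.67 to 25.89 in dKO, 25.36 to 25.9 in control), stellate (62.54 to 77.64 and 65.27 to 74.61), cholangiocyte (84.54 to 93.26 and 77.08 to 98.34) and lymphocyte markers (46.87 to 54.77 and 50.42 to 62.95) overlapped between the groups. The part of these markers in the Cmah result was not tested.

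Gne and Cmas supply the activated sugar. At Gne 2 of 4 shared regions were lower, and both lie outside the gene, 19612 and 20182 bp before its outer start. The one at chr4:44104260-44104458 had 11.1, 7.11 and 13.9 normalized tags in dKO 1, 2 and 3, against 29.8, 19.2 and 19.3 in control 1, 2 and 3, without overlap (log2 fold change -0.98, SE 0.20, limma adjusted p = 0.00533). The call was kept in every alternative. Its neighbour at chr4:44103675-44103903 had 16.2, 13.7 and 22.2 in dKO against 32.7, 23.2 and 23.5 in control (-0.53, SE 0.16, limma adjusted p = 0.0321), a call lost in 6 of 18 alternatives, namely without dKO 1 (limma adjusted p = 0.125), dKO 2 (0.151) or control 1 (0.112), with quantile (0.053) or cyclic loess normalization (0.0568), and with a mean of at least 10 (0.0504). The internal start described with the sequences was not called (-0.18, SE 0.12, limma adjusted p = 0.293), and the difference between it and the outer regions was not tested.

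None of the 3 shared regions at Cmas was called. Its start, at chr6:142756620-142756792, was among the most open sites of the 10 genes, with 50.2, 45.5 and 58.7 normalized tags in dKO 1, 2 and 3 and 54, 47.9 and 44 in control 1, 2 and 3. The groups overlapped (log2 fold change 0.14, SE 0.11, limma adjusted p = 0.404), though the region was called higher with quantile (adjusted p = 0.0278) or cyclic loess normalization (0.0316).

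St6gal1 encodes the main enzyme of liver that links sialic acid to position 6 of galactose on serum glycoproteins. It had 24 regions, 8 of them shared, of which 2 were lower and none higher. A region 32664 bp outside the gene, at chr16:23191978-23192151, had 18.7, 13.5 and 25.2 normalized tags in dKO 1, 2 and 3, against 30.9, 28 and 32 in control 1, 2 and 3 (log2 fold change -0.62, SE 0.14, limma adjusted p = 0.0105). That call was lost without dKO 2 (0.0809). The strongest St6gal1 region, 4054 bp past the third start at chr16:23294432-23294616, had 30.1, 27.7 and 42.5 in dKO against 48.3, 42.8 and 46.4 in control (-0.41, SE 0.12, limma adjusted p = 0.0304). dKO 3 lay just under the lowest control there, and the call was lost in 8 of 18 alternatives, among them both other normalizations and no centring.

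All 3 St6gal1 starts of the table were open in every library. The first, at chr16:23224686-23224899, had 29.3, 23.7 and 29.5 normalized tags in dKO and 21.5, 24.4 and 27.5 in control (log2 fold change 0.22, SE 0.13, limma adjusted p = 0.225). At the third, values were 15.6, 11.8 and 15.9 in dKO and 19.1, 15.5 and 21.5 in control (-0.29, limma adjusted p = 0.194). Both pairs overlapped. A weak region at chr16:23337378-23337606 had a peak in all controls, of 5.85, 6.84 and 7.46, and in no dKO library.

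The St3gal enzymes link sialic acid to position 3 of galactose. Their 53 shared regions held 7 higher and 7 lower ones, 13.2% in each direction, against 8.19% higher and 11.6% lower over all shared regions. The products of St3gal3 and St3gal4 act mainly on N-glycan ends, those of St3gal1 and St3gal2 on O-glycans, and that of St3gal5 makes the ganglioside GM3. No difference between these genes was tested.

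St3gal4 had 3 of 4 shared regions lower. Inside the gene at chr9:35059121-35059398, values were 26.5, 26.1 and 35.5 normalized tags in dKO 1, 2 and 3, against 44.4, 43.9 and 51.9 in control 1, 2 and 3, without overlap (log2 fold change -0.60, SE 0.12, limma adjusted p = 0.0049). This call held in every alternative that tested it. A region 1326 bp past the far end of the gene, at chr9:35045118-35045381, had 5.42, 9.09 and 24.1 in dKO against 37.3, 18.5 and 36.2 in control (-1.30, SE 0.35, limma adjusted p = 0.0205). dKO 3 lay above control 2, and the call was lost without dKO 1 (0.0984), dKO 2 (0.0879), control 1 (0.0905) or control 3 (0.0587).

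The St3gal4 start region, at chr9:35116624-35116831, was the strongest of that gene, with 47.1, 46.8 and 67.2 normalized tags in dKO and 80.5, 67.1 and 68.7 in control. dKO 3 and control 2 were nearly equal (log2 fold change -0.37, SE 0.12, limma adjusted p = 0.0448). Among the 27 regions called at these genes, no other lay within 1 kb of a start of the promoter table. The call was lost in 13 of 18 alternatives, with adjusted p up to 0.163. The signal summed over the 4 regions of St3gal4 was 85.26, 103.6 and 127.6 in dKO and 171.7, 137.5 and 171.5 in control, with library medians set equal.

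St3gal3, which spans 202821 bp, had 16 shared regions, of which 3 were lower and 1 higher. The 3 lower ones lie 141825, 151976 and 156851 bp into the gene. The strongest, at chr4:117993010-117993232, had 21, 21.1 and 43.3 normalized tags in dKO 1, 2 and 3, against 57.8, 47.4 and 58 in control 1, 2 and 3, without overlap (log2 fold change -0.93, SE 0.18, limma adjusted p = 0.00472). This call stood in every alternative. The region at chr4:117977992-117978198 had 20.6, 19.5 and 32.4 in dKO against 40.7, 37.5 and 35.2 in control (-0.60, SE 0.14, limma adjusted p = 0.0102; lost without dKO 1, 0.0626, or dKO 2, 0.0703). At chr4:117982874-117983067 values were 22.9, 20.6 and 31.3 in dKO and 38.2, 38.2 and 30.2 in control, so dKO 3 lay above control 3 (-0.45, SE 0.14, limma adjusted p = 0.0328, lost in 8 of 18 alternatives).

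Nearer to its start, a St3gal3 region at chr4:118089986-118090277 was higher, with 16.4, 12.8 and 13.2 normalized tags in dKO and 9.9, 9.96 and 10.3 in control (log2 fold change 0.51, SE 0.16, limma adjusted p = 0.0416). The control libraries were nearly equal, but this call was lost in 10 of 18 alternatives. The start itself, at chr4:118134907-118135141, had 28.6, 26.1 and 37.1 in dKO and 42, 32.8 and 34.1 in control, overlapping and not called (-0.19, SE 0.13, limma adjusted p = 0.323). A region at chr4:118062244-118062446 with a peak in 5 libraries, which was not tested, had 29.8, 17.1 and 16.8 in dKO and 3.94 and 6.89 in control 1 and control 2, and no peak in control 3. All dKO values there lay above both control values. The next region begins just past its end, at chr4:118062461-118062754, and had peaks in dKO 2 (9.57), control 1 (4.42) and control 3 (6.34). A faint region at chr4:118075374-118075639 had a peak in every control, of 7.56, 7.47 and 7.57, and in no dKO library.

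St3gal1 had 12 shared regions, 2 higher and 1 lower. Inside the gene at chr15:67128962-67129186, values were 32.2, 24.7 and 22.2 normalized tags in dKO 1, 2 and 3, against 16.9, 13 and 14.9 in control 1, 2 and 3 (log2 fold change 0.83, SE 0.17, limma adjusted p = 0.00633). Just outside the gene, at chr15:67098970-67099203, they were 19.8, 18.7 and 22.9 in dKO against 11.9, 13.2 and 14.4 in control (0.66, SE 0.14, limma adjusted p = 0.00675). Neither pair overlapped, and both calls were lost only without dKO 2 (0.0521 and 0.0541). The lower region, at chr15:67146812-67146997, had 32.5, 28.9 and 36.3 in dKO against 51.7, 44.1 and 41.8 in control (-0.42, SE 0.12, limma adjusted p = 0.0222) and lost its call in 6 of 18 alternatives.

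The strongest shared St3gal1 region, at chr15:67161779-67161988, had 44.8, 37.9 and 50.9 normalized tags in dKO and 61.6, 60 and 52.5 in control and was just short of the threshold (log2 fold change -0.32, SE 0.11, limma adjusted p = 0.0522). The region was called lower in 4 alternatives, with limma adjusted p of 0.0431 to 0.0479. At the upper end of the gene the peaks of the libraries did not merge: 59.6 and 55.7 in dKO 1 and dKO 2 and 77.7, 70.3 and 72.8 in the controls fell in one region, and 78.3 in dKO 3 in the next. Outside the gene a region at chr15:67093590-67093812 had a peak in all 3 dKO libraries, of 9.56, 6.79 and 6.56, and in no control. It was the 1 region of 177 with that pattern, which 1.57% of all regions had.

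St3gal2 had 4 shared regions and 1 was higher. At chr8:110965686-110965882, inside the gene, values were 19.7, 13.3 and 19.5 normalized tags in dKO 1, 2 and 3, against 9.9, 8.9 and 11.3 in control 1, 2 and 3 (log2 fold change 0.79, SE 0.16, limma adjusted p = 0.00537). The groups did not overlap and the call held in every alternative. Close by, a region at chr8:110966690-110966898 with a peak in 5 libraries had 22.3, 16.3 and 20.4 in dKO and 9.05 and 8.8 in control 1 and control 3. The strongest region, at chr8:110919288-110919479 and 360 bp outside the gene, had 35.3, 31.8 and 38 in dKO and 39.9, 35.2 and 33.4 in control (0.02, limma adjusted p = 0.934). The one at chr8:110919923-110920128 had 7.93, 8.47 and 16.8 in dKO and 9.37, 10.8 and 10.3 in control, so dKO 3 alone was high (0.10, limma adjusted p = 0.755).

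St3gal5 had 13 shared regions, the most after St3gal3, and 1 was higher. That one lies 26043 bp before the start, at chr6:72071447-72071683, with 25.5, 17.6 and 21.3 normalized tags in dKO 1, 2 and 3, against 11.9, 15.9 and 12.2 in control 1, 2 and 3 (log2 fold change 0.71, SE 0.16, limma adjusted p = 0.00973). Its call was lost without dKO 1 (0.0657). The strongest region, at chr6:72058427-72058632, had 39.3, 32.4 and 49 in dKO and 55.4, 44.5 and 46.4 in control (-0.22, limma adjusted p = 0.206). At the start, chr6:72097559-72097827, values were 19.6, 19.4 and 27.8 in dKO and 21.1, 26 and 24.6 in control (-0.05, limma adjusted p = 0.823). Summed over its 13 regions St3gal5 was at 95.9%, 105% and 99.0% of the control mean.

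St3gal6 had 4 shared regions and 2 were higher, both outside the gene before its start. At chr16:58536170-58536365, 12014 bp before the outer start, values were 22.1, 19.8 and 14.7 normalized tags in dKO 1, 2 and 3, against 12.1, 7.95 and 6.22 in control 1, 2 and 3 (log2 fold change 1.11, SE 0.24, limma adjusted p = 0.00713). Among shared regions of the 10 genes this was the largest increase, and the call was lost without dKO 2 (0.0569). A second region 14920 bp before the start, at chr16:58539086-58539259, had 10.4, 11.3 and 9.11 in dKO against 8.41, 5.41 and 4.93 in control (0.72, SE 0.21, limma adjusted p = 0.0276), with no overlap, and lost its call in 6 of 16 alternatives. Near the internal start, at chr16:58523141-58523409, values were 13.3, 12 and 17.9 in dKO and 7.19, 13.1 and 13.5 in control (0.42, limma adjusted p = 0.167). The outer St3gal6 start overlapped no peak.

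Summed over its shared regions, St3gal6 stood at 154%, 175% and 134% of the control mean in dKO 1, 2 and 3, the highest of the 10 genes, and St3gal4 at 53.2%, 64.6% and 79.6%, close to Cmah. With library medians set equal, the sums did not overlap between groups for Cmah, St3gal3, St3gal4 and Gne, which were lower in dKO. Nor did they for St3gal2, St3gal6 and Cmas, which were higher by 1.12, 1.54 and 1.07 times. For St6gal1, St3gal1 and St3gal5 the scaled sums overlapped, at 0.876, 1.04 and 0.999 times the control mean. Before this scaling the sums of St3gal3, Gne, St3gal2 and Cmas overlapped as well. How often such sums separate over all genes was not counted.

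**Figure D3:**
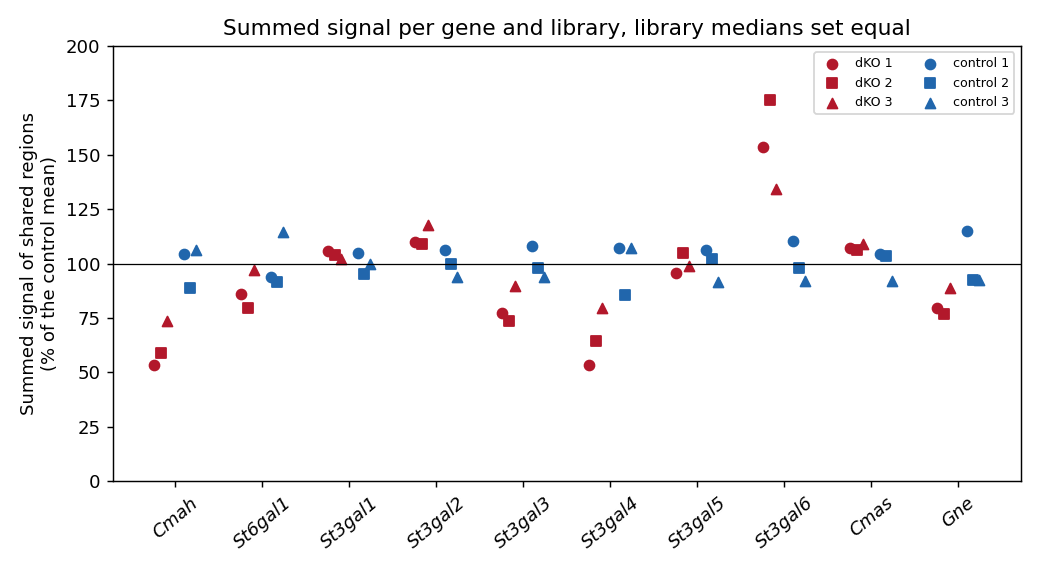
Signal summed over the shared regions of each gene in each library (symbols, dKO in red and control in blue), as a percent of the control mean after library medians were set equal. Cmah and St3gal4 fall to between 53.2% and 79.6% in the dKO libraries, and St3gal6 lies at 134% to 175%.

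Called regions of the 10 genes differed in how open they were in controls. The 20 lower regions had control means from 22.8 to 73.6 normalized tags, and the 7 higher ones from 6.25 to 14.9, so the 2 sets did not overlap. The same tilt was present over all shared regions, with a median control mean of 29.8 for lower, 9.24 for higher and 15.6 for regions not called. The calls use these same control values, which by itself favours high control means among lower regions and low ones among higher regions. How much of the separation this makes up was not tested. Position was compared for the 8 genes with a start window. Within 1 kb of a start 1 of 12 shared regions was lower and none higher, and beyond it 18 of 51 were lower and 4 higher. Cmah alone held 9 of these 18 lower regions. Over shared regions of all genes with a start window, 10.3% were lower and 2.71% higher within 1 kb, and 10.9% and 10.4% beyond.

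The 11 Cmah regions had a median log2 fold change of -0.83 in narrow-peak libraries and -0.36 in wide-peak libraries. All 11 had the same sign in both classes. For the 79 regions of the 10 genes the medians were -0.18 and -0.005 (-0.03 and 0.01 for all shared regions). Of these 79, 59 had the same sign in both classes, and of all 51749 shared regions 37509 did. The 7 higher regions had log2 fold changes of 0.46 to 0.92 among narrow-peak and 0.25 to 0.87 among wide-peak libraries, and the 20 lower ones of -0.46 to -2.12 and -0.11 to -0.68. The calls use the same values as these class differences, which by itself favours a shared sign among called regions.

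**Figure D4:**
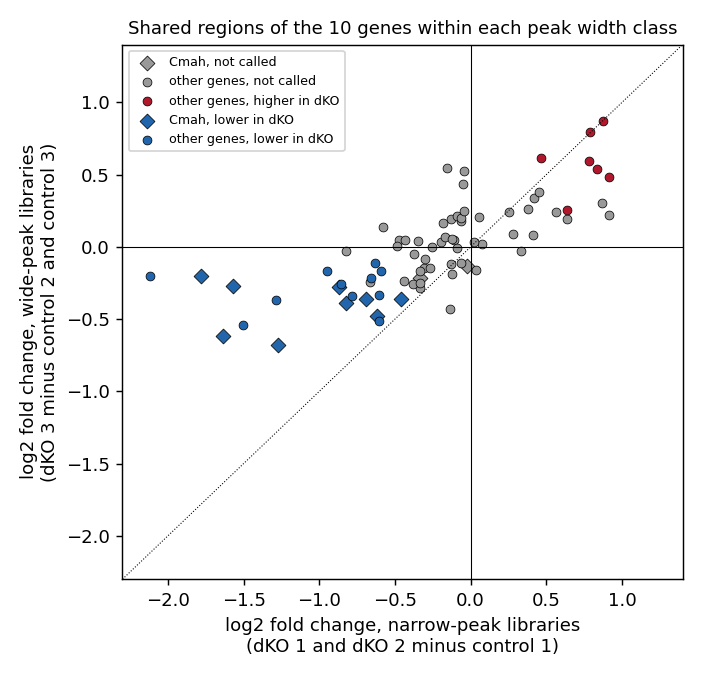
Log2 fold change, dKO minus control, of each shared region of the 10 genes in narrow-peak libraries (x axis) and wide-peak libraries (y axis), with Cmah as diamonds and the line of equality dotted. Called regions share their sign in both classes, which the calls favour because they use the same values. Blue points lie above the line, closer to 0 in the wide-peak libraries.

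Other genes of sialic acid metabolism were counted as well. Of 27 such genes (further synthesis and transport genes, sialidases, other sialyltransferases, and the receptor genes Asgr1 and Asgr2 that bind desialylated glycoproteins), 18 had shared regions, 57 in all, of which 2 were higher and 7 lower. These are 3.51% and 12.3%, against 8.19% and 11.6% of all shared regions. Their median log2 fold change was -0.06. Neu1, the lysosomal sialidase gene, had a region at chr17:34931154-34931363 with 15.6, 13.6 and 22.6 normalized tags in dKO 1, 2 and 3, against 32, 26 and 28.4 in control 1, 2 and 3 (-0.67, SE 0.14, limma adjusted p = 0.00705). Inside St6galnac6, a sialyltransferase gene, one had 15.4, 16.4 and 34.1 in dKO against 36.6, 39.2 and 44 in control (-0.86, SE 0.19, limma adjusted p = 0.0082), and beside Neu2, a cytosolic sialidase gene, one had 34.9, 26.9 and 44.4 against 52.8, 50 and 52.2 (-0.50, limma adjusted p = 0.0105). None of these 3 overlapped between the groups.

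Both higher regions of that list lie in St8sia1, which encodes the synthase of the ganglioside GD3. One had 14.2, 9.25 and 10.9 normalized tags in dKO and 7.03, 6.75 and 7.34 in control (log2 fold change 0.67, SE 0.17, limma adjusted p = 0.0148). The other had 36.2, 28.5 and 32.9 in dKO and 28.8, 26.1 and 19.7 in control, with overlap (0.45, SE 0.15, limma adjusted p = 0.0484). St8sia1 held 2 lower regions as well. At Asgr2 1 of 3 shared regions was lower, and the single shared region of Asgr1 was not called. No region was linked to Neu4, St6gal2, St6galnac1, St6galnac5 or St8sia6.

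The 50 kb limit fell between St3gal1 sites. Just inside it, 45322 bp from the gene, control 1 alone had a peak, of 4.04 normalized tags, and 40207 bp from it a shared region had 12.8, 8.57 and 8.44 in dKO and 7.5, 6.37 and 6.56 in control (log2 fold change 0.53). Just outside, at 54469 bp, a region had peaks in dKO alone, of 16.5, 12.1 and 9.42, and at 57362 bp another had 13.3, 6.95 and 8.32 in dKO and 4.58 and 10.4 in control 1 and control 3.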

How the data were processed

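ATAC-seq peak lists of 6 libraries, 3 dKO and 3 control, were analysed. Tools named in the submitters' processing notes are HOMER 4.11, SAMtools 1.10, Picard and Trim Galore 0.6.4, with the build mm10. Aligner, read filters and peak options: not given in the sources used here. Per the file headers, each library has its own HOMER peak list, with coordinates used as deposited. The normalized tag count is a signal that the authors scaled to depth and deposited in rounded form, and the depth per library is unknown. The deposited peak score was used only to filter peaks in 1 alternative. The deposited fold over the local surroundings, a ratio, was at least 4 in each list.

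Peaks of the autosomes and X were joined into regions. The shared regions, with a peak in each of the 6 libraries, entered the fit as log2(value + 1), each library centred on its median, with limma 3.58.1 (mean-variance trend) in R 4.3.3, group as the only term, and 2-sided p-values adjusted by Benjamini-Hochberg over all 51749 shared regions, threshold 0.05. The fold change understates the change of weak regions. SE is the moderated standard error. Values of single regions, and whether the groups overlap there, are given as deposited, before centring, so the order of close values can differ in the fit. The fit was tested on simulated data. Gene spans and start windows came from RefSeq (GRCm38.p6). Exons, introns and UTRs were not analysed here, nor was the sequence of regions outside the start windows. Results for the other floxed gene are not reported here.

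The genes and gene lists were chosen with earlier results of these data known. Regions named are, for each gene, the shared region with the highest mean, the one nearest to a gene end, up to 4 called regions with the smallest p, and regions with peaks in 1 group only; of the other sialic acid genes, up to 3 called regions per direction with the smallest p. The Cmah region without a difference, the start regions with sequence, the third St6gal1 start, and regions with peaks in some libraries only (the St3gal2 and St3gal3 ones among them) were added after their values were seen. The smallest p of an exact permutation test at this size is 0.1, so none was used.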

Additional observations from a re-analysis of the deposited data

How the results depend on the processing

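Against 7 higher and 20 lower regions at the 10 genes, other scalings gave 13 lower ones (quantile and cyclic loess alike), regions called in at least 3 libraries gave 11 higher ones, and links within 10 kb gave 4 higher ones. Leaving out 1 library gave 2 to 8 higher and 7 to 23 lower regions. Over all shared regions, 4240 were higher and 5995 lower; the higher ones numbered 2562 without centring, and the lower ones 3884 with peaks above the lower quartile of the score. Leaving out 1 library gave 1257 to 5174 higher and 1402 to 8123 lower regions, fewest without dKO 2. Without dKO 3 there were 8 higher and 23 lower regions at the 10 genes.

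With the replicate number as a block, 11 regions of the 10 genes were higher and 21 lower. The labels do not say whether the numbers pair the libraries. The correlation of deviations from the group means was 0.146, -0.0322 and 0.234 for numbers 1, 2 and 3. dKO 1 and dKO 3 correlated best with the control of the same number, and dKO 2 with control 1. Both libraries numbered 1 have narrow peaks and both numbered 3 have wide ones, so these values cannot decide whether the libraries are paired.

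Of the 22 called regions named by rule, at most 4 of a gene, 8 kept their call in every alternative that tested them. The remaining lower regions of Cmah are outside this count, and all of them lost their call without dKO 1 and without dKO 2. Uncalled regions near 0 changed sign. The St3gal2 region at 110919288 (0.02) was -0.044 without centring and -0.033 with the width class as a term, and ran from -0.044 (without control 3) to 0.093 (without control 1) with 1 library left out. That at 110919923 (0.10) ran from -0.134 (without dKO 3) to 0.290 (without dKO 1). The St3gal5 start (-0.05) was 0.025 with quantile normalization, 0.040 with cyclic loess, 0.025 with a mean of at least 10, 0.015 with the score filter, 0.029 with the width class, 0.035 without dKO 1 and 0.012 without control 2, with a range of -0.132 (without dKO 3) to 0.035 over the libraries left out. The cause was not tested. Depth is unknown, which limits statements on weak regions.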

Other observations

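The genes beside Cmah gave other counts. Carmil1, 46602 bp below it, had 10 shared regions with 1 higher and 1 lower, and Ripor2, 24235 bp above it, had 11 with 3 lower and none higher. Their median log2 fold changes were 0.24 and -0.23, against -0.62 at Cmah; the difference was not tested.

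Among the 638 genes with at least 10 shared regions, Cmah alone reached 81.8% of regions lower, where the median gene had 8.33%, and 2 genes, Cmah included, had a median log2 fold change as low as -0.62. Cmah was proposed with earlier results known, so this position is a description.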
